A study of Mus musculus with 3 samples.

Results

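The 10 genes described here, Fos, Fosb, Jun, Junb, Jund, Egr1, Ier2, Atf3, Btg2 and Klf6, are immediate-early genes of the AP-1 and Egr type, and they were taken by symbol from the 32285 genes of the matrices. They were selected on values measured in these libraries, in which Fos was lower in both p38 blockade groups, so the changes given below are descriptions and carry no test. Single-cell RNA sequencing (10x Genomics, 3′ ends) was done on live CD45+ cells sorted from 4T1 mammary tumors that grew for 14 days in the 4th mammary fat pad of female Balb/c mice aged 6 to 8 weeks. All mice received 200000 cells of the luciferase-tagged mammary carcinoma line 4T1-luc. Vehicle mice carried p38α wild-type tumors and were given DPBS, p38i mice carried the same tumors and were gavaged daily with the p38 inhibitor LY2228820 (ralimetinib) at 30 mg/kg for 10 days from day 4, and p38KO mice carried p38a-ko-H9 tumors, a single 4T1 clone in which CRISPR-Cas9 had inactivated the gene of p38α (Mapk14), with no treatment given in the labels. In p38KO tumors only the tumor cells lacked p38α, and the sorted leukocytes were cells of a wild-type host, whereas the inhibitor was given to the whole animal. Each group was 1 library made from the pooled tumors of 3 mice. No p-value or standard error was therefore computed, and the intervals given below cover counting error only, leaving out the variation between mice, tumors and library preparations.

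Immediate-early genes are switched on within minutes of a stimulus by kinases that are already in the cell, with no need for new protein synthesis, and most of their mRNAs are short-lived. Fos and Jun proteins pair to form the transcription factor AP-1, which drives cytokine, chemokine and protease genes in leukocytes. p38, ERK and JNK kinases all act upstream, p38 through MSK kinases and CREB-type factors at promoters and through MK2 on mRNA stability. Leukocytes also switch these genes on while a tissue is taken apart, and the study digested its tumors with a protease that works in the cold.

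Cells were assigned to 6 gates by raw counts of lineage genes, none of them a member of the group. The neutrophil gate used Csf3r and Cxcr2, the monocyte gate Ly6c2 and Fn1, the macrophage gate C1qa, the dendritic cell (DC) gate Flt3, the T gate Cd3e and the NK gate Ncr1. Values for the 3 libraries are given throughout in the order vehicle, p38i, p38KO. The gates held 2007, 2406 and 1733 neutrophils, 484, 826 and 419 monocytes, 100, 122 and 317 macrophages, 41, 74 and 72 DC, 529, 632 and 518 T cells and 110, 114 and 126 NK cells, while 14.4%, 12.9% and 17.5% of kept cells fell in no gate. Of 7, 6, 6, 6, 5 and 5 further markers of these types, each was highest in its own gate in every library, except 1 of the 6 DC markers in the vehicle library. Kept cells carried a median of 3162, 3038 and 3317 unique molecular identifiers (UMIs, 1 for each captured transcript), and their median mitochondrial share was 0.671%, 0.968% and 2.10%. Between 11 and 15 barcodes of a library also occurred in another library. Levels are given as UMIs of a gene per 1000000 UMIs summed over the cells of a gate (CPM). Changes are given as the log2 ratio of CPM to the vehicle library. In the DC gate the 6 monocyte markers summed to 2765, 2377 and 1930 CPM. The 6 DC markers summed to less there, 747, 1007 and 1246 CPM. The monocyte sum of this gate was thus highest in vehicle, and its DC sum lowest. The part of this mixture in the DC ratios of Fos and the other members was not tested. In the monocyte gate the 6 monocyte markers summed to 5209, 4571 and 5578 CPM, and the 6 macrophage markers to 4015, 3204 and 4192 CPM. Markers of tumor epithelium (Epcam, Krt8 and Krt18) summed to 5.67, 4.04 and 136 CPM there. The part of such other cells in the monocyte ratios of the members was not tested. Calls were made by size: a gene counted as higher or lower where the log2 ratio was 0.5 or more from 0, the exact conditional binomial 95% interval left out 0, and both libraries together held at least 20 counts.

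The promoters of 8 members were found in a RefSeq table of mouse promoters (GRCm38.p6), which covers 250 bases before and 50 bases after a gene's start. The letters TGACG, the core of the cAMP response element (CRE) to which CREB and ATF proteins bind, occurred on one strand or the other in 5 of these 8 promoters and in 20.8% of all 32851 promoters in the table. They are shown in capitals in the 180 bases before the RefSeq start of each of these 5 genes, read 5′ to 3′ along the gene, to show where the one motif found in several members, of the 5 searched, lies. The regions are chr12:85473710-85473889 on the plus strand for Fos, chr7:19310046-19310225 for Fosb, chr8:84978749-84978928 for Junb, chr1:191183334-191183513 for Atf3 and chr1:134079156-134079335 for Btg2, the last 4 on the minus strand. The Atf3 start in that table lies inside the longer span that GENCODE gives this gene.
Fos: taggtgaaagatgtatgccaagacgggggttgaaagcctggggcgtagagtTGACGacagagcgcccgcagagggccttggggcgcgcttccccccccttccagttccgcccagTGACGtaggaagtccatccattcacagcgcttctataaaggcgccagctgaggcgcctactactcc
Fosb: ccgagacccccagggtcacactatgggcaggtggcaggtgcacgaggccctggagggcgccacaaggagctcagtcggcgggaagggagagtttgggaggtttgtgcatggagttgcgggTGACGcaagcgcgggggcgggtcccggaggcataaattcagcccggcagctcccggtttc
Junb: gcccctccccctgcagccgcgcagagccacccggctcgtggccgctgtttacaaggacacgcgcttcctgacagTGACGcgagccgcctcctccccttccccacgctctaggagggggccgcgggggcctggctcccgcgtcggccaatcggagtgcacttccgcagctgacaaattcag
Atf3: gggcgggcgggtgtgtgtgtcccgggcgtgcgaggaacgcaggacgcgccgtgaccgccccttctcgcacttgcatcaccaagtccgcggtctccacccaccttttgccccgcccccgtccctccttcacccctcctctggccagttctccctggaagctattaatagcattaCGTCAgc
Btg2: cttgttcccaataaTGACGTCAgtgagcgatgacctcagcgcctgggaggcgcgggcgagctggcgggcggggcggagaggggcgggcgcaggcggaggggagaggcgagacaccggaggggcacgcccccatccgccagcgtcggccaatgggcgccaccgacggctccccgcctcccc

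In Fos the capitals begin 129 and 66 bases before the start, in Fosb 60, in Junb 106 and, read on the opposite strand, in Atf3 7 bases before it. In Btg2 they form the whole element TGACGTCA, 166 bases before the start, which contains the core on both strands and was found in 1 of the 8 member promoters and in 1.79% of all promoters. The AP-1 site TGANTCA, the Egr site GCGTGGGCG and the CArG box of serum response factor, searched on both strands, were in none of the 8 windows and in 7.81%, 0.612% and 1.63% of all promoters. Bases outside these windows, and other forms of the sites, were not searched, so the genes may hold such sites elsewhere. The promoters of Egr1 and Ier2 were not analysed here, and those of Jun, Jund and Klf6 held none of these motifs in the window.

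With p38i, most members had a ratio below 0 in 5 of the 6 gates. In neutrophils 3 of the 10 members were called lower and 0 higher, where 3.05% of all genes with 20 counts were called lower and 10.3% higher. In monocytes 6 were lower and 0 higher, against 2.86% and 4.08% of all genes. In DC 8 were lower and 0 higher, against 3.46% and 5.33%, and in NK cells 7 of the 9 members with enough counts were lower and 0 higher, against 5.63% and 3.17%. T cells had 5 lower and 2 higher, against 2.27% and 6.26%. Macrophages stood apart from this with 3 lower and 2 higher, against 4.2% and 3.72%. The members' median log2 ratio was -0.36 in neutrophils, -0.63 in monocytes, -0.84 in DC, -0.54 in T cells, -1.59 in NK cells and 0.04 in macrophages, while the median of all genes lay between -0.05 and 0.14 in these gates. Over the 60 combinations of member and gate, 32 were lower and 4 higher. The members were chosen with this contrast in view, so these counts describe the choice as well as the cells.

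With p38KO, lower members were found in 4 gates and none in neutrophils or T cells. In neutrophils 0 of the 10 members were lower and 0 higher, where 2.42% and 11.7% of all genes were, and the members' median of 0.20 was next to the 0.15 of all genes. T cells had 0 lower and 1 higher, against 3.59% and 8.28% of all genes, with a median of -0.03 beside 0.11. Monocytes had 3 lower and 0 higher, against 2.1% and 8.61%, with a median of -0.37. In macrophages 4 were lower and 1 higher, against 3.31% and 7.58%, with a median of -0.04. In DC 6 were lower and 0 higher, against 4.43% and 5.73%, with a median of -0.81, and in NK cells 5 were lower and 0 higher, against 7.32% and 5.14%, with a median of -0.51. In all, 18 combinations were lower and 2 higher. Both contrasts use the same vehicle library, so a level that was high in that library by itself would lower both, and the similarity of the contrasts is not a second observation.

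**Figure D1:**
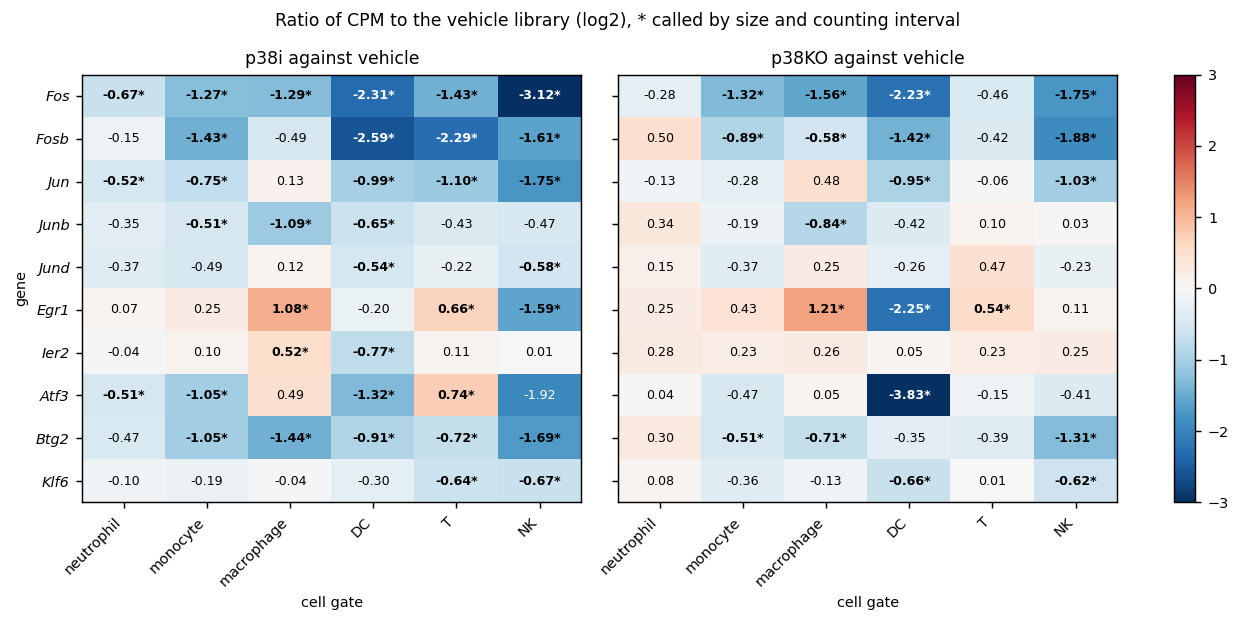
Log2 ratio of CPM to the vehicle library for each of the 10 genes (lines) in each of the 6 cell gates (columns), p38i at left and p38KO at right; bold values with a star were called by size and counting interval. Fos is below 0 in all 12 fields, and the neutrophil column of p38KO holds no called gene. Egr1 is above 0.5 in macrophages and T cells of both groups. With p38KO Egr1 was below 0 in both CD4 and CD8 T cells, divisions that leave out part of the T gate.

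Fos, the most studied partner of Jun proteins in AP-1 (chromosome 12, 85473890 to 85477273, plus strand), was highest in neutrophils and monocytes and lowest in the lymphoid gates. In neutrophils it had 826 CPM in vehicle, 519 in p38i and 679 in p38KO. In monocytes the levels were 670, 278 and 268 CPM, so the vehicle library was far above the other two, which lay close together. In DC they were 423, 85.1 and 90.0 CPM, and in macrophages 188, 76.8 and 63.6 CPM. T cells had 51.2, 19.0 and 37.2 CPM and NK cells 95.6, 11.0 and 28.4 CPM, the latter from 64, 8 and 27 counts. The vehicle library was the highest in every gate. In vehicle each gate in the order neutrophil, monocyte, DC, macrophage, NK and T was separated from the next by its Poisson interval, while in p38i DC and macrophages, and T and NK cells, were not separated.

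Expressed as ratios, Fos was called lower in 6 of 6 gates with p38i and in 4 of 6 with p38KO. The p38i library was 1.59-fold lower in neutrophils, 2.42-fold in monocytes, 2.45-fold in macrophages, 4.97-fold in DC, 2.70-fold in T cells and 8.67-fold in NK cells. The corresponding p38KO values were 2.50-fold in monocytes, 2.96-fold in macrophages, 4.70-fold in DC and 3.37-fold in NK cells. In neutrophils and T cells of p38KO the log2 ratio was -0.28 (-0.35 to -0.22) and -0.46 (-0.82 to -0.10), below 0 and short of the size needed for a call. The smallest called difference was in p38i neutrophils, with a log2 ratio of -0.67 (-0.73 to -0.61), and the largest in p38i NK cells, with -3.12 (-4.39 to -2.05). Single cells carried part of the low counts: 1 cell held 21.9% of the Fos counts of vehicle NK cells and 21.0% of those of vehicle DC. In the NK gate of p38KO, 14 of 126 cells also carried a count of a mast cell or basophil marker (Cpa3, Ms4a2, Gata2 or Mcpt8), against 1 cell in each of the other libraries, with 3 of these 4 markers detected and a summed level of 444 CPM against 1.38 to 1.49 CPM. Without such cells the Fos ratio of p38KO NK cells was -2.63.

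**Figure D2:**
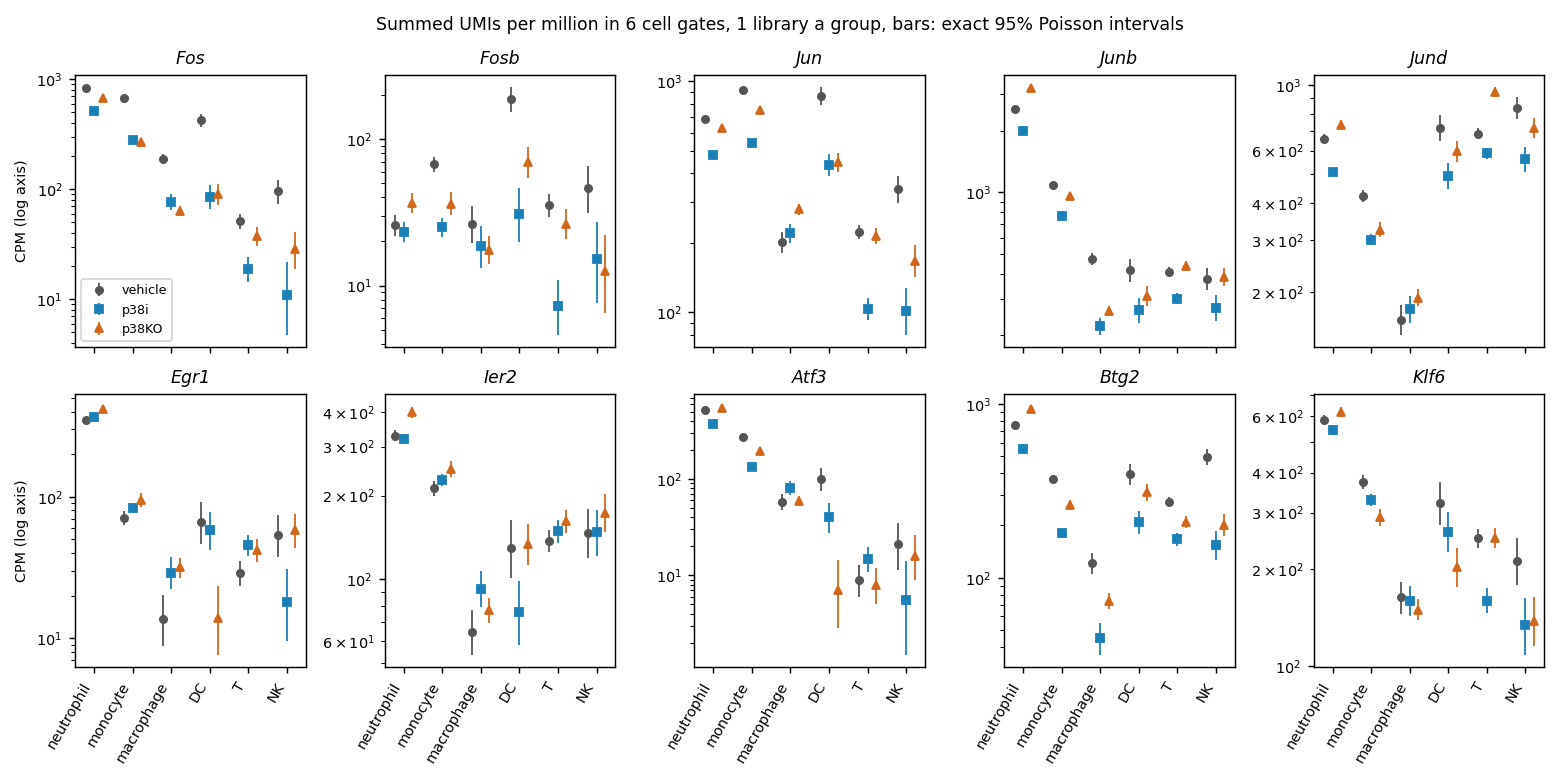
CPM (log axis) of each of the 10 genes in 6 gates for the vehicle, p38i and p38KO libraries, 1 library a group, with exact 95% Poisson intervals as bars. The Fos panel shows vehicle above both other libraries in each gate, with neutrophils at 826, 519 and 679 CPM and NK cells at 95.6, 11.0 and 28.4 CPM.

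Fosb, a second Fos family protein that can take the place of Fos in AP-1 (chromosome 7, 19302696 to 19310051, minus strand), was highest in DC, although in p38i DC, monocytes and neutrophils were not separated by their intervals. In DC it was at 187 CPM in vehicle, 31.0 in p38i and 70.0 in p38KO, and in monocytes at 67.4, 25.0 and 36.3 CPM. Vehicle was the highest library in both gates. T cells had 35.5, 7.28 and 26.4 CPM, with p38i alone far down. The log2 ratios with p38i were -2.59 in DC (-3.30 to -1.94), -2.29 in T cells (-3.00 to -1.63), -1.43 in monocytes and -1.61 in NK cells. In the last, 1 of the p38i cells held 72.7% of 11 counts, and without the richest cells the ratio was -3.19. With p38KO they were -1.42 in DC, -0.89 in monocytes, -1.88 in NK cells and -0.58 (-1.11 to -0.04) in macrophages. The macrophage value rested on 48 and 84 counts, 1 vehicle cell held 35.4% of the former, and without the richest cell of each library it was -0.08. In neutrophils Fosb was not lower, at 25.8, 23.3 and 36.6 CPM, and its p38KO ratio of 0.50 there was just under the size for a call.

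The 3 Jun genes differed from each other. Jun, the main partner of Fos (chromosome 4, 95049034 to 95052222, minus strand), had 688, 480 and 627 CPM in neutrophils, 914, 544 and 754 in monocytes and 865, 435 and 448 in DC (vehicle, p38i, p38KO). Thus p38i was the lowest library in all 3 gates, and p38KO lay near it in DC only. T cells showed 223, 104 and 214 CPM and NK cells 342, 102 and 167 CPM. With p38i Jun was called lower in these 5 gates, with log2 ratios from -0.52 in neutrophils to -1.75 in NK cells. With p38KO it was lower in DC (-0.95) and NK cells (-1.03) only. Macrophages ran the other way without reaching a call, at 201, 220 and 280 CPM and a p38KO ratio of 0.48 (0.31 to 0.65). Without the richest cell of each library that ratio was 0.52 and called higher.

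Junb, which tends to restrain Jun and is abundant in granulocytes, had 2541 CPM in vehicle neutrophils, 1996 in p38i and 3214 in p38KO (chromosome 8, 84974484 to 84978718, minus strand). The p38KO library was thus the highest there, with a ratio of 0.34 (0.31 to 0.37). The largest change of Junb was in macrophages, at 471, 221 and 263 CPM, with log2 ratios of -1.09 with p38i and -0.84 with p38KO. It was also called lower with p38i in monocytes (-0.51) and DC (-0.65). Jund, the family member that resting cells express most steadily (chromosome 8, 70698949 to 70700616, plus strand), changed little. Its ratios lay between -0.58 and 0.12 with p38i, where it was lower in DC (-0.54) and NK cells (-0.58), and between -0.37 and 0.47 with p38KO, where no gate reached a call. Jund was also ordered differently over cell types, with 838 CPM in vehicle NK cells, 715 in DC, 685 in T cells and 659 in neutrophils, 4 gates whose neighbours were not separated by their intervals, and with 161 CPM in macrophages.

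Egr1 and Ier2 did not follow Fos in most gates. Egr1, a zinc finger factor induced by growth factors and antigen receptors, had 348, 366 and 414 CPM in neutrophils and 70.6, 83.7 and 95.3 CPM in monocytes (vehicle, p38i, p38KO), with vehicle lowest in both gates and no call. In macrophages it was at 13.7, 29.0 and 31.7 CPM, and in T cells at 28.7, 45.2 and 41.8 CPM. Both blockade libraries were thus above vehicle in these gates, and the log2 ratios were 1.08 (0.39 to 1.82) and 1.21 (0.59 to 1.88) in macrophages and 0.66 and 0.54 in T cells. The macrophage counts were small, 25, 59 and 151. The T cell values were not seen in both T divisions: in CD4 cells Egr1 had 75.5, 58.1 and 61.7 CPM and ratios of -0.38 and -0.29, and in CD8 cells 21.1, 40.9 and 19.2 CPM and ratios of 0.95 and -0.14. With p38KO both ratios were below 0. There were 190 CD4 and 146 CD8 cells of 518 T cells with p38KO, against 140 and 258 of 529 in vehicle. T cells with counts of both Cd4 and a CD8 gene, or of neither, are in no division. The part of these cells in the Egr1 ratios of the T gate was not tested. After each cell was thinned to 1500 UMIs the T cell ratios were -0.09 with p38i and 0.07 with p38KO, and the p38KO value was 0.43, not called, with median-ratio scaling. Lower values were called in NK cells of p38i (-1.59, from 36 and 13 counts) and DC of p38KO (-2.25, from 36 and 14 counts). In each of these vehicle gates 1 cell held 52.8% of the Egr1 counts. Without the richest cells the NK value was -1.04 and no longer called. The p38KO ratio of Egr1 in NK cells was 0.11, and 0.93 and called higher without the richest cells.

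Ier2, an immediate-early nuclear protein (chromosome 8, 84661331 to 84662852, minus strand), had 328, 319 and 399 CPM in neutrophils, 212, 228 and 250 in monocytes, 138, 149 and 161 in T cells and 146, 147 and 173 in NK cells (vehicle, p38i, p38KO). The p38KO library was the highest in all 4. Its p38KO ratios were above 0 in all 6 gates, between 0.05 and 0.28, and none was called. With p38i it was called higher in macrophages (0.52), a value that turned to -0.05 after thinning, and lower in DC (-0.77, from 70 and 59 counts).

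Atf3, a stress-induced factor of the ATF family that can pair with Jun (chromosome 1, 191170296 to 191218039, minus strand), was called lower with p38i in neutrophils, monocytes and DC, and in macrophages stood above vehicle where Fos was lower. Its levels were 525, 368 and 540 CPM in neutrophils and 273, 132 and 197 CPM in monocytes (vehicle, p38i, p38KO). The log2 ratio with p38i was -0.51 in neutrophils, -1.05 in monocytes and -1.32 in DC. In macrophages it was 0.49 (0.13 to 0.85), short of a call, at 57.6 and 80.7 CPM in vehicle and p38i. In T cells it was 0.74 (0.05 to 1.46) from 30 and 47 counts, and 0.54 without the richest cell of each library, no longer called. With p38KO only DC were called, at -3.83 (-5.22 to -2.69) from 54 counts in vehicle and 7 in p38KO, and it was -4.47 without the richest cells. Btg2, an antiproliferative gene that promotes mRNA decay (chromosome 1, 134075170 to 134079120, minus strand), was called lower in 8 of the 12 fields of gate and group, as was Fosb. It had 499, 154 and 202 CPM in NK cells, 121, 44.8 and 73.8 in macrophages and 372, 180 and 262 in monocytes, with vehicle highest and p38i lowest each time. With p38i it was called lower in 5 gates, from -0.72 in T cells to -1.69 in NK cells, and in neutrophils it was at -0.47. With p38KO it was lower in NK cells (-1.31), macrophages (-0.71) and monocytes (-0.51), and in neutrophils it was at 0.30. Klf6, a zinc finger factor of myeloid inflammation (chromosome 13, 5861482 to 5870394, plus strand), stayed within 0.36 of vehicle on the log2 scale in neutrophils, monocytes and macrophages of both groups. It was called lower in T cells (-0.64) and NK cells (-0.67) with p38i, and in DC (-0.66) and NK cells (-0.62) with p38KO. Nearest to the size for a call were Btg2 in p38KO monocytes, at -0.51, on the inside, and Fosb in p38KO neutrophils, at 0.50, on the outside.

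A lower sum could come from fewer cells with the transcript or from less of it per cell. After each cell was thinned to 1500 UMIs, 46.9%, 36.1% and 38.8% of neutrophils (vehicle, p38i, p38KO) had a Fos UMI, and 58.5%, 45.4% and 47.0% had one before thinning. The shares were 43.0%, 24.1% and 21.0% in monocytes, 19.0%, 13.1% and 9.46% in macrophages and 24.4%, 9.46% and 13.9% in DC, where 70.7%, 31.1% and 38.9% had one unthinned. In monocytes the exact Clopper-Pearson 95% interval of vehicle (38.5% to 47.5%) lay above those of p38i (21.2% to 27.2%) and p38KO (17.2% to 25.2%). In macrophages and DC the interval of vehicle overlapped those of both p38i and p38KO. Among T cells the thinned shares were 7.18%, 3.16% and 4.63%, and among NK cells 12.7%, 2.63% and 6.35%. The vehicle interval overlapped that of p38KO in T cells and those of both other libraries in NK cells. The amount per positive cell was lower as well: thinned monocytes with a Fos UMI had 2.43 of them on average in vehicle, 1.79 in p38i and 1.93 in p38KO, and neutrophils 2.79, 2.39 and 2.65.

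Cells that carried many members at once were counted in the same thinned data. UMIs of at least 5 of the 10 genes were found in 47.7%, 40.1% and 48.4% of neutrophils, 26.9%, 14.2% and 18.4% of monocytes and 7.18%, 1.42% and 6.18% of T cells (vehicle, p38i, p38KO). Thus neutrophils and T cells of p38KO lay within the interval of vehicle, and monocytes of p38KO below it. NK cells had 14.5%, 4.39% and 5.56% and DC 19.5%, 6.76% and 8.33%, with wide intervals from few cells. Macrophages had 4.00%, 4.10% and 4.10%, close to each other.

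**Figure D3:**
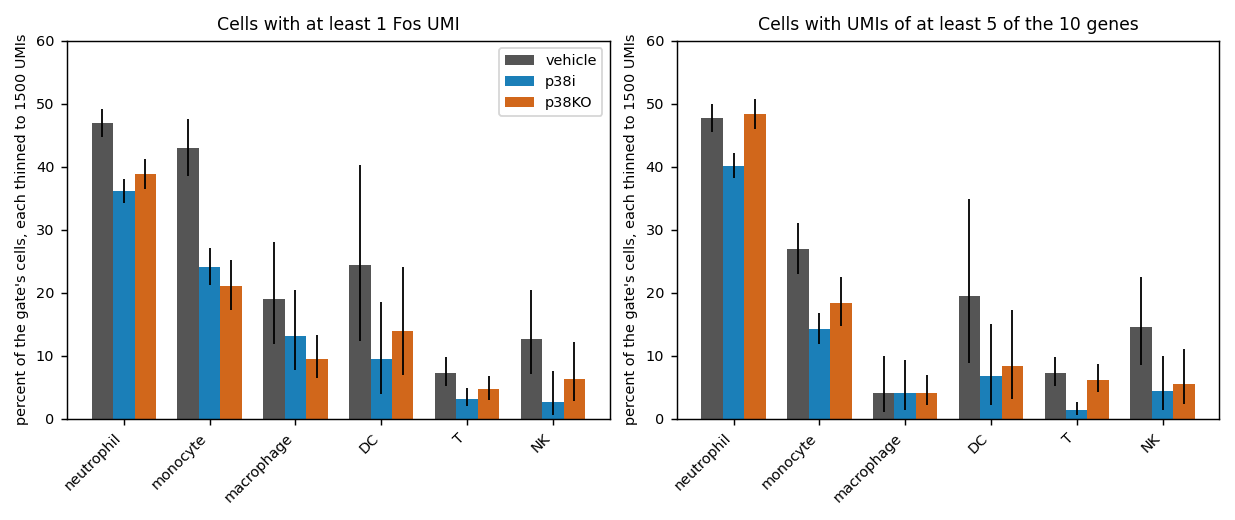
Percent of the cells of each gate with at least 1 Fos UMI (left) and with UMIs of at least 5 of the 10 genes (right) after each cell was thinned to 1500 UMIs, for the vehicle, p38i and p38KO libraries; bars on the columns are exact 95% binomial intervals. Monocytes with Fos were 43.0% in vehicle against 24.1% and 21.0%, whereas the share with 5 or more genes in macrophages was near 4% in each library.

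The gates were then divided by further lineage genes to see where within a type the levels differed. Among monocytes with Ly6c2, the classical form, Fos had 731, 339 and 322 CPM (vehicle, p38i, p38KO), and among those without it 478, 152 and 112 CPM. The log2 ratios were -1.11 and -1.18 in the former and -1.66 and -2.09 in the latter, so both divisions were lower. Cells without Ly6c2 entered the gate by Fn1 alone, and markers of other cell types were not read by division. Jun differed between the groups in monocytes with Ly6c2, at -0.74 with p38i and -0.16 with p38KO. In those without Ly6c2 it did not, at -0.73 and -0.72. Neutrophils with Cxcr2 had 867, 527 and 705 CPM of Fos and those without it 672, 482 and 547 CPM, with p38KO ratios of -0.30 in both. CD8 T cells had 22.2, 5.64 and 5.64 CPM of Fos, from 42, 8 and 5 counts, and CD4 T cells 75.5, 27.7 and 40.2 CPM. The p38KO ratios were -1.97 (-3.67 to -0.64) in CD8 and -0.91 (-1.53 to -0.30) in CD4 T cells, both further from 0 than the -0.46 of the whole T gate. The CD4 division held 140, 166 and 190 cells and the CD8 division 258, 234 and 146, of 529, 632 and 518 T cells. Between these divisions CD4 cells had more Fos, and their share was largest in p38KO. The other T cells had counts of both Cd4 and a CD8 gene, or of neither, and were not analysed apart. The part of these shares and of the other cells in the ratio of the whole T gate was not tested. Jun was at 163, 60.6 and 202 CPM in CD8 T cells, with ratios of -1.43 and 0.31, and at 225, 124 and 151 CPM in CD4 T cells, with ratios of -0.86 and -0.58 (-0.91 to -0.25).

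**Figure D4:**
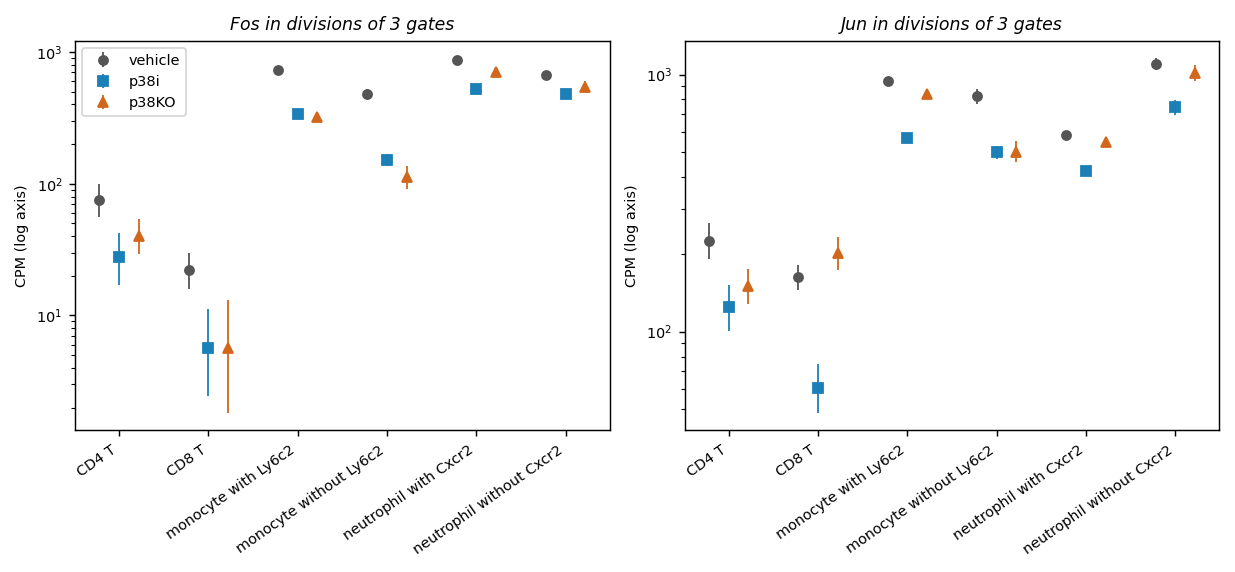
CPM (log axis) of Fos (left) and Jun (right) in CD4 and CD8 T cells, monocytes with and without Ly6c2 and neutrophils with and without Cxcr2, for the 3 libraries, with exact 95% Poisson intervals as bars. Fos of vehicle lies above both blockade libraries in all 6 divisions, and Jun of CD8 T cells is 163 CPM in vehicle, 60.6 in p38i and 202 in p38KO.

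Summed over all kept cells, the ratios also followed the mixture of cell types. There Fos was at 487, 273 and 229 CPM (vehicle, p38i, p38KO), which gave ratios of -0.83 and -1.09. Neutrophils, the gate with the most Fos, made up 52.5%, 50.2% and 44.9% of kept cells, and macrophages, with little of it, 2.62%, 2.55% and 8.21%. The level of each gate, and of the ungated cells, was then weighted by its share of the vehicle library's UMIs, not of its cells. The Fos ratios were then -0.90 and -0.71, so p38i came out further from vehicle than p38KO and the order of the groups turned. Standardised in the same way, Btg2 in p38KO went from -0.47 to -0.09, Atf3 from -0.56 to -0.19, and Junb from -0.30 to 0.12. With p38i every member kept its sign, and Jun moved most, from -0.55 to -0.63. The ungated cells were weighted as a whole, so the mixture within them was not standardised. In them the macrophage markers summed to 8483, 8658 and 24474 CPM and the neutrophil markers to 21048, 32605 and 8806 CPM (vehicle, p38i, p38KO).

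Other immediate-early genes, a list of 25 that holds none of the members, were more often called lower than higher in 5 gates with p38i and in 4 with p38KO. With p38i 6 of 24 with enough counts were lower and 1 higher in neutrophils, 9 of 25 lower and 2 higher in monocytes, 7 of 21 lower and 2 higher in DC, 8 of 25 lower and 3 higher in T cells and 10 of 22 lower and 0 higher in NK cells, while macrophages had 4 lower and 6 higher of 24. With p38KO neutrophils had 1 lower and 6 higher of 24, monocytes 5 lower and 1 higher of 24, DC 9 and 1 of 23, T cells 6 and 2 of 25, NK cells 13 and 0 of 24 and macrophages 2 and 2 of 22. The shares of all genes called are those given above for the members. Dusp1, a phosphatase that switches off p38 and JNK, was called lower in all 6 gates of both groups. It had 2266, 725 and 1500 CPM in neutrophils, 558, 173 and 183 in monocytes and 82.8, 20.2 and 23.1 in macrophages (vehicle, p38i, p38KO). The log2 ratios of Dusp1 ran from -2.44 in NK cells to -1.26 in DC with p38i and from -1.84 in macrophages to -0.59 in neutrophils with p38KO. Some of the list ran the other way: Klf10, induced by TGFβ, was at 6.80, 19.9 and 19.1 CPM in T cells, and Egr2, which follows T cell receptor signals, at 2.96, 7.91 and 9.39 CPM there, both called higher in both groups. Nr4a3 was called higher in DC of both groups, at 7.39, 24.5 and 49.0 CPM, and lower in NK cells, at 32.9, 13.8 and 7.36 CPM. At such low levels the intervals were wide. The Egr2 ratios in T cells were 1.42 (0.31 to 2.64) and 1.67 (0.58 to 2.88). Those of Nr4a3 were 1.73 (0.14 to 3.74) and 2.73 (1.28 to 4.66) in DC. In NK cells they were -1.25 (-2.50 to -0.12) and -2.16 (-3.63 to -0.88).

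AP-1 relatives outside the group changed little. Of 12 such genes at most 2 were called lower and at most 2 higher in any gate, and their medians lay between -0.01 and 0.23, near those of all genes. The one called lower in both groups was Fosl2, a late Fos family member, at 151, 62.0 and 49.4 CPM in NK cells, 61.0, 27.1 and 24.0 in DC and 42.2, 24.6 and 28.1 in macrophages (vehicle, p38i, p38KO). Of 26 kinases and factors upstream, more were called higher than lower in neutrophils and T cells, as among all genes. Neutrophils had 0 lower and 4 higher of 23 with p38i and 0 and 3 with p38KO, where 10.3% and 11.7% of all genes were higher. T cells had 0 and 3 of 25 in each, where 6.26% and 8.28% were higher. More were lower than higher in NK cells, again as among all genes. There 3 of 21 were lower and 0 higher with p38i, and 5 and 1 of 22 with p38KO. Of all genes 5.63% and 7.32% were lower there and 3.17% and 5.14% higher. The other gates had at most 1 lower and 3 higher, and the shares of all genes are again those given for the members. Mapk14 itself, which these host cells keep, was at 27.4, 34.1 and 32.8 CPM in neutrophils and was called higher in macrophages of both groups (0.91 and 0.67).

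Transcripts that p38 and MK2 are known to stabilise were lower beside the members in several gates, and some were higher. For comparison, the shares of all genes called in each gate are those given for the members. In monocytes 6 of 8 with enough counts were called lower with p38i and 4 with p38KO, with none higher. There the prostaglandin synthase Ptgs2 was at 199, 84.9 and 119 CPM and the neutrophil chemokine Cxcl2 at 1263, 582 and 777 CPM (vehicle, p38i, p38KO). Cxcl2 was called lower in both groups in 5 gates. Neutrophils held far more of it, at 11547, 6665 and 9582 CPM. The part of neutrophil transcripts in its level in the other gates was not tested. T cells had 3 lower and 1 higher of 7 with p38i, and 2 and 1 of 6 with p38KO. The higher ones were Il1b with p38i (1.26) and Csf2 with p38KO (1.24). NK cells had 2 lower and 0 higher of 2 with p38i, and 2 and 1 of 4 with p38KO. The higher one was Csf2 (5.30, from 1 and 56 counts). DC had 2 lower and 0 higher of 2 in each group. In neutrophils 3 of 8 were lower and 1 higher with p38i, and with p38KO 0 were lower and 3 higher, among them Il6, at 3, 18 and 42 counts and ratios of 2.35 (0.57 to 4.75) and 4.22 (2.57 to 6.55). Macrophages had 4 of 6 lower and 2 higher with p38i, and 2 lower and 2 higher with p38KO. Cxcl2 (-1.62 and -1.89) and Ptgs2 (-0.79 and -1.51) were lower there in both groups. Tnf (2.17 and 2.03, from 6, 30 and 64 counts) and Cxcl3 (2.62 and 0.71, from 41, 281 and 175 counts) were higher. In the NK gate 1, 1 and 14 cells carried a count of a mast cell or basophil marker (vehicle, p38i, p38KO). There were 0, 2 and 20 such cells in the T gate and 4, 9 and 47 in the neutrophil gate. The part of such cells in the levels of Csf2 and Il6 was not tested.

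Heat-shock genes, which cells also switch on during handling, are given beside the members as a whole list of 13. Their median log2 ratio lay between -0.26 and -0.01 with p38i and between -0.50 and 0.08 with p38KO, and at most 4 were called lower in any gate, in p38KO DC, and at most 2 higher, in p38i macrophages. Here too the shares of all genes called in each gate are those given for the members. The stress-inducible Hspa1a and Hspa1b were called in the most gates, and Dnajb4, Hspb1, Hsph1, Hsp90aa1 and Dnaja1 each in 1 or more. Hspa1a was at 134, 37.0 and 22.8 CPM in neutrophils and 150, 69.7 and 36.0 CPM in DC (vehicle, p38i, p38KO), and Hspa1b at 147, 85.8 and 72.9 CPM in monocytes and 95.8, 41.8 and 51.1 CPM in T cells. Vehicle was highest each time. Dnajb4 was called lower in p38i T cells (-1.14) and NK cells (-1.26) and higher in p38i neutrophils (0.56). Hsp90aa1 (-0.65) and Dnaja1 (-0.53) were called lower in p38KO DC. In macrophages Hspa1a was lowest in vehicle, at 25.8, 76.3 and 44.0 CPM. Hspa1b was highest in vehicle there, at 54.8, 40.8 and 46.4 CPM, without a call. The median of the list in macrophages was -0.17 with p38i and -0.21 with p38KO. Hspb1 in macrophages was called higher with p38i (1.13) and lower with p38KO (-1.97), and Hsph1 lower with p38KO (-0.52). The part of handling in the level of the members was not tested, and with 1 library a group it cannot be told apart from the treatment.

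**Figure D5:**
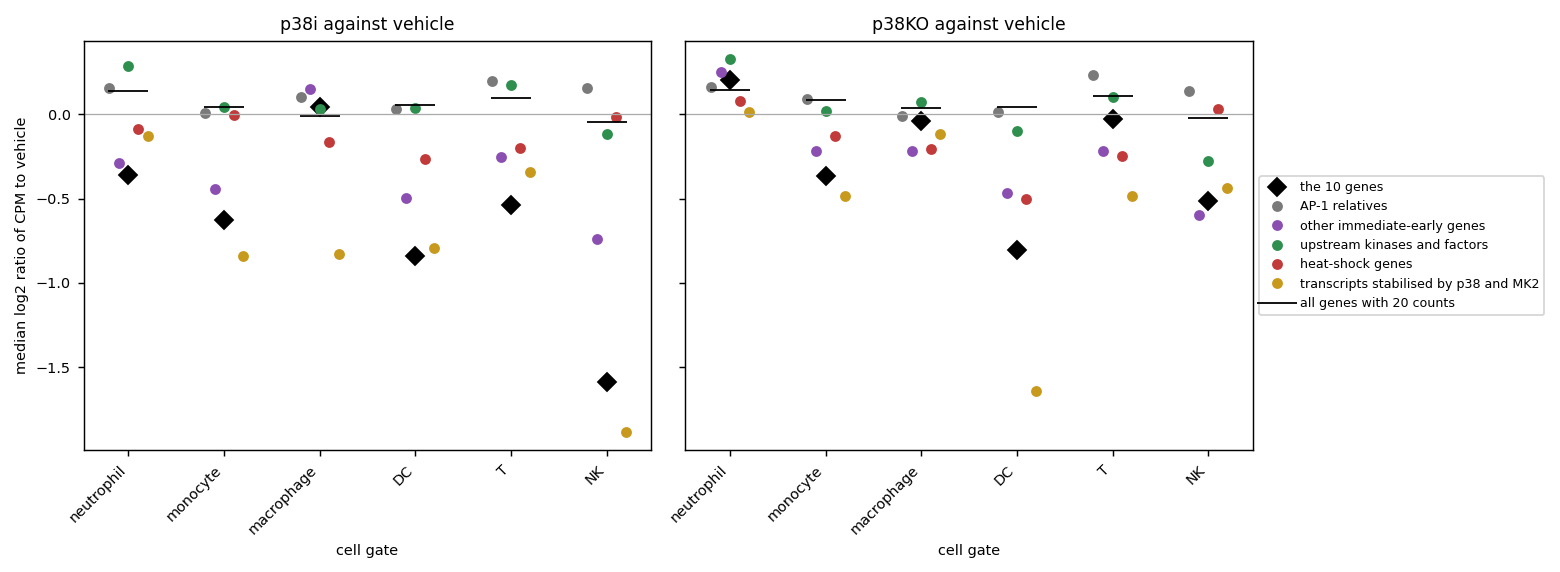
Median log2 ratio of CPM to vehicle of the 10 genes (diamonds), of 5 gene lists (circles) and of all genes with at least 20 counts (short lines) in each of 6 gates, p38i at left and p38KO at right. The diamonds lie furthest down in p38i NK cells, at -1.59, and near the line of all genes in p38KO neutrophils, at 0.20.

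The members did not form a single pattern over cell types. Over the 18 sums of a gate and a library, on the scale of log2(CPM + 10), the Pearson correlation with Fos was 0.91 for Atf3, 0.89 for Jun, 0.86 for Klf6, 0.81 for Junb, 0.71 for Egr1, 0.61 for Btg2, 0.55 for Ier2, 0.51 for Fosb and -0.07 for Jund. The 18 points share 3 libraries and 6 cell types, so they are not independent and the values are descriptions. Of 4620 genes with at least 100 counts and 50 CPM, the 5 non-members most like Fos were Slc3a2 (0.94), Sec24b (0.94), Arrdc3 (0.92), Snx18 (0.92) and Picalm (0.91). Those most like the mean of the 10 members were Neat1 (0.95), Dusp1 (0.94), Pim1 (0.93), Coq10b (0.93) and Zfp263 (0.93).

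Transcripts of other cells in a droplet can add to a level, and neutrophils were both the most numerous cells and the highest in most members. The neutrophil transcripts S100a8 and S100a9 reached 5.66%, 4.56% and 2.83% of their neutrophil level in the monocyte gate (vehicle, p38i, p38KO), and between 0.113% and 0.298% in the other gates. The same share of the neutrophil level of Fos would give 46.8, 23.6 and 19.2 CPM in monocytes, where 670, 278 and 268 CPM were measured. For Egr1 it would give 19.7, 16.7 and 11.7 CPM in monocytes, of 70.6, 83.7 and 95.3 CPM, 27.9%, 19.9% and 12.3% of its level and the largest share of any member in that gate. For Atf3 in T cells, at low levels, the share was 17.7%, 5.53% and 18.9%. Whether cells of the monocyte gate and the other gates made S100a8 and S100a9 themselves was not tested, so these shares do not measure carried-over transcripts alone. Barcodes that failed the cell filter were read as well. In these 768, 1550 and 1353 barcodes Fos was at 592, 568 and 427 CPM, which gave ratios of -0.06 (-0.21 to 0.09) and -0.47 (-0.64 to -0.30), and Egr1 was at 189, 374 and 265 CPM.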

How the data were processed

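Values were taken from UMI counts per gene and cell barcode, which the authors made with Cell Ranger (6.0.0 in the file headers) on mm10 and deposited without normalization. The submitters' processing notes also name R 4.2.1 and Seurat 5. The notes give the 10x 3′ chemistry as v2 and the paper another version, and neither enters a value. The 10 members and all gene lists were chosen with earlier results of these data known.

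The study's cell filter (at least 1500 UMIs and 300 genes, no more than 20% mitochondrial counts) left 12472 of 16143 barcodes, and 10630 of them were gated. The macrophage gate needed 3 counts of C1qa, and the other gates 1 count of their genes and fewer than 3 of C1qa. T, NK, macrophage and DC cells held no count of Csf3r or Cxcr2. No gate but T held Cd3e, and no gate but T and NK held Ncr1. Neutrophils and monocytes held no Flt3 and were told apart by which pair of gating genes had more counts. Other counts of lineage genes were allowed, such as Ly6c2 or Fn1 in the T, NK, macrophage and DC gates. No doublet caller was run. Counts were summed per gate and library. Summed UMIs ranged from 541126 in vehicle DC to 7072655 in p38i neutrophils, which sets the precision. Intervals are exact Poisson for CPM, exact conditional binomial for ratios and Clopper-Pearson for shares. There was no test between groups and no model fit, since each group has 1 library. Genes named from a list were called in the same direction in both contrasts within a gate, up to 3 for each list and gate, ranked by the smaller change, and others named beside them were chosen after their values were seen. Thinning drew each cell down to 1500 UMIs with seed 1. Gene positions are from GENCODE M21 on GRCm38, the assembly of mm10. The functions were tested on simulated counts. Python 3.11.15, numpy 2.4.6, pandas 2.3.3, scipy 1.17.1 and matplotlib 3.10.9 were used.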

Additional observations from a re-analysis of the deposited data

Results flagged for a closer look

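Of the 10 genes, 3 were called higher in one gate and lower in another of the same group, and in each case the difference between the gates was not tested, since there is 1 library a group. Egr1 with p38i had log2 ratios of 1.08 in macrophages, 0.66 in T cells and -1.59 in NK cells. Egr1 with p38KO had 1.21 in macrophages, 0.54 in T cells and -2.25 in DC. The p38KO value in T cells was not seen in CD4 cells (-0.29) or CD8 cells (-0.14), and it was 0.43, not called, with median-ratio scaling. These divisions leave out part of the T gate, and the T cells outside them were not analysed apart. The p38i value in T cells was -0.087 after thinning. The vehicle level behind both lower values came for 52.8% from 1 cell. Ier2 with p38i had 0.52 in macrophages, -0.046 after thinning, and -0.77 in DC. Atf3 with p38i had -0.51 in neutrophils, -1.05 in monocytes, -1.32 in DC and 0.74 in T cells, the last from 30 and 47 counts and 0.54, not called, without the richest cells.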

How the results depend on the processing

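Under 12 other settings, the 58 ratios followed singly (every called member and Fos in every gate) mostly kept their direction and call, and 4 turned direction under one setting each. Fosb in p38KO macrophages was 0.73 with each cell weighted the same. Egr1 in p38i T cells was -0.087 and Ier2 in p38i macrophages -0.046 after thinning, and Egr1 in p38i NK cells was 0.52 with C1qa at 1. For Fos, thinning left the ratios of p38i macrophages (-0.72, from -1.29) and p38KO DC (-0.90, from -2.23) without a call. Fos in p38KO T cells gained one with median-ratio scaling (-0.57), with the total without mitochondrial and ribosomal protein genes (-0.51), with equal weights (-0.68), with thinning (-0.63), without the richest cell (-0.61) and without cells with mast cell markers (-0.53). A minimum of 200 counts removed the calls of NK cells (-3.12 and -1.75), and a size of 1 that of p38i neutrophils (-0.67). Under thinning the count of lower combinations went from 32 to 19 with p38i and from 18 to 11 with p38KO. Thinning keeps fewer counts and also gives every cell the same total. At a size of 1 the counts of lower combinations were 18 and 10. Higher combinations with p38i, 4 in all, were 1 under thinning, 1 at a size of 1, 1 with C1qa at 1, 2 at 200 counts and 3 without the richest cell. Those with p38KO, 2 in all, were 1 with median-ratio scaling, 1 at a size of 1, 1 at 200 counts, 1 without cells with mast cell markers, 4 with equal weights, a setting without an interval, and 4 without the richest cell. The settings without the richest cell and without cells with mast cell markers were chosen after seeing the data. Except where the setting raises the minimum of counts for a call or the size, the cause was not tested, and this includes thinning. Median-ratio scaling moved all ratios down by 0.117 and 0.125 in neutrophils of p38i and p38KO and by 0.109 in p38KO T cells.

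No paired analysis was possible because each group is 1 library, with no replicate to leave out. Depth limits DC and NK cells most, where several members had fewer than 50 counts in a library.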
